A study of Mus musculus with 6 samples.

Results

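The genes described here are Nfe2l2, which encodes the transcription factor NRF2, its antioxidant targets Hmox1, Nqo1, Gclc, Gclm, Txnrd1 and Srxn1, Gpx4, whose enzyme reduces lipid peroxides, and the ferritin chain genes Fth1 and Ftl1. The genes were chosen by name, with earlier results of these data known, and all 10 were found among the 20938 genes of the deposited table. RNA of whole melanoma tumours was sequenced. The tumours had grown from B16F10 cells, a pigmented mouse melanoma line, injected subcutaneously into the left hind leg of male C57BL/6 mice at 6 weeks of age in 200 µL of saline. They were collected on day 19. The 3 control tumours came from B16F10 cells and the other 3 from B16F10 cells labelled YKL-40 overexpressing. YKL-40 is a secreted chitinase-like protein. All 6 libraries carry the genotype label WT, and the labels do not say which vector the cells carried or whether each tumour came from its own mouse. The p-values below therefore measure only how far these libraries spread.

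NRF2 is held at a low level by KEAP1, which hands it to a CUL3 ubiquitin ligase. Oxidants and electrophiles stop this, and NRF2 then pairs with a small MAF protein and binds antioxidant response elements near genes for glutathione synthesis, thioredoxin and haem breakdown. BACH1 holds several of the same elements silent until haem removes it. Ferritin, a shell of heavy and light chains, stores iron, and iron regulatory proteins control it mainly at translation, through a hairpin in the leader of both ferritin mRNAs. Pigmented melanoma cells, macrophages and other cells of a tumour all express genes of this set.

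The targeted gene, Chil1 in the file (Chi3l1), was at 0.0644, 0 and 0.0242 FPKM in the controls and at 0 in all 3 YKL-40-labelled libraries. FPKM is fragments scaled to transcript length and library depth. The labels do not state the species of the overexpressed sequence. Reads of a human one need not map to Chil1, while for a mouse one the zeros would go against the label. Every direction below rests on the labels alone. FPKM summed to between 468605 and 490955 per library. Read totals are unknown, and depths estimated from the lowest values ran from 0.949 to 1.33 times that of control 1. The tumours had the melanoma identity of their label: 8 of 8 pigment and melanocyte genes were detected, led by Pmel at 3752 ± 122 FPKM in control tumours and 4906 ± 753 in YKL-40-labelled tumours (SD, n = 3 per group, as in every mean below).

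None of the 10 genes passed the test between the groups. With limma on log2(FPKM + 1), 0 of 10 passed an adjusted p of 0.05, 0 had an unadjusted p under 0.05, and in 0 of 10 did the groups fail to overlap. Among all 11241 tested genes, 0.436% passed, 18.0% had an unadjusted p under 0.05 and 24.4% had groups without overlap. The members' changes ran from -0.18 to 0.39 on the log2 scale, with a median of 0.08 and 8 of 10 above 0, against a median of -0.04 and 42.2% above 0 over all tested genes. The adjusted p-values ran from 0.393 for Ftl1 to 0.971 for Gclm. For 10 of 10 genes the range of the control libraries on the log2 scale was larger than the change between the groups, which held for 68.6% of all tested genes.

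**Figure D1:**
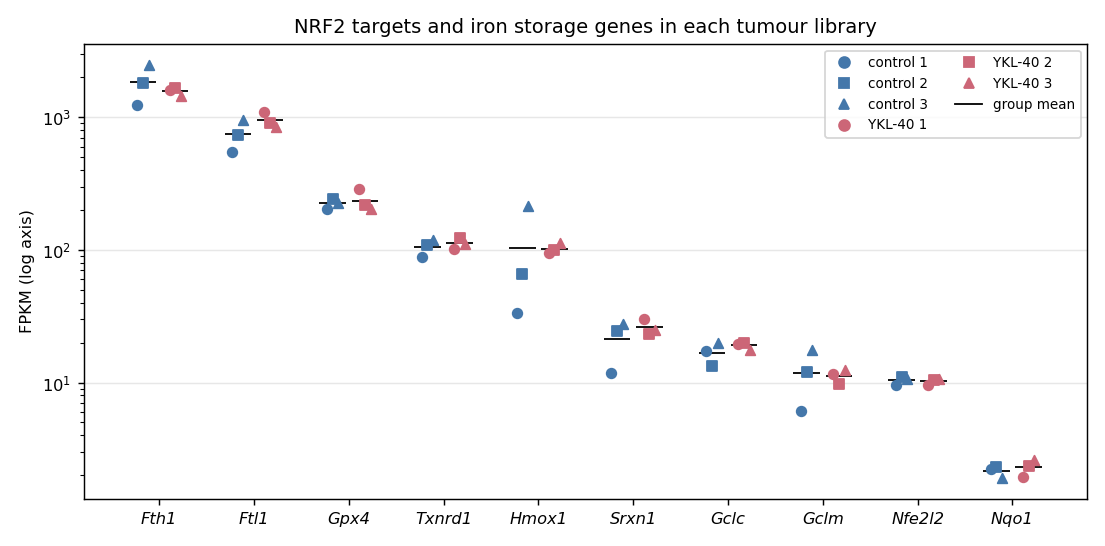
FPKM of the 10 genes on a log axis, in order of their mean, for the 3 control (blue) and 3 YKL-40-labelled (red) libraries, with circles, squares and triangles for libraries 1, 2 and 3 and a line for the group mean. Hmox1 ran from 33.2 to 212 FPKM in control tumours and from 94.0 to 113 in YKL-40-labelled tumours.

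On the FPKM scale, which is per length, the mean levels of the controls ran from 2.15 for Nqo1 to 1839 for Fth1. Fth1 was the 16th most abundant gene of the table, Ftl1 the 53rd and Gpx4 the 317th. Txnrd1 and Hmox1 followed by their means, and their levels overlapped. Hmox1 reached 212 FPKM in control 3, above the lowest library of Gpx4 at 202 FPKM. Srxn1 and Gclc came next and overlapped, and so did Gclm and Nfe2l2, whose means were lower. Gclm reached 17.6 FPKM in control 3, above the lowest libraries of Srxn1 and Gclc. Nqo1 was lowest and stood apart from the rest, with 2.60 FPKM in its highest library against 6.05 FPKM in the lowest library of Gclm.

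Nfe2l2 itself (chromosome 2, 75675513 to 75704663, GRCm38.p6) had 9.51, 11.0 and 10.6 FPKM in control tumours and 9.51, 10.5 and 10.6 in YKL-40-labelled tumours. The groups overlapped. The log2 change was -0.02, with a 95% interval from -0.25 to 0.21, and it was 0.01 with median of ratios scaling. The interval corresponds to 0.838-fold to 1.16-fold on the scale of FPKM + 1, and it reflects only the spread of these libraries. NRF2 is controlled mainly through the stability of the protein, which was not analysed here.

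Antioxidant response elements carry the core TGACNNNGC, and some carry TGAGNNNGC. Both were searched on both strands in the RefSeq promoters of GRCm38.p6, windows of 300 bases from 250 before to 50 after a start, to show what the sequences near these genes hold. The table matched 8 of the 10 members, with 14 promoters in all. Hmox1 and Gclc had no entry. A match was found in 4 of the 14 promoters, each of a different member, against 27.8% of all 32851 promoters. The match is shown in capitals with 10 bases on each side, 5′ to 3′ on the strand of the gene.
Gclm, chr3:122245413-122245441, plus strand: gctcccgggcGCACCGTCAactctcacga
Nfe2l2, chr2:75704885-75704913, minus strand: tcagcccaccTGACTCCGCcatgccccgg
Srxn1, chr2:152105356-152105384, plus strand: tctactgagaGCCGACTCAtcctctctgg
Srxn1, chr2:152105469-152105497, plus strand: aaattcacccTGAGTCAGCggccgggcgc
Srxn1, chr2:152105542-152105570, plus strand: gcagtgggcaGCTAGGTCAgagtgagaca
Txnrd1, chr10:82859104-82859132, plus strand: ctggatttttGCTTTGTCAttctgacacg
Distances are counted from the RefSeq start on which each promoter window is built, which for Nfe2l2 and Srxn1 is the start of the gene as given here and for Gclm (122245557) and Txnrd1 (82859206) lies inside the gene. In Gclm the match began 134 bases before that start, in Nfe2l2 240 and in Txnrd1 92. Srxn1 had 3 matches, which began 158 and 45 bases before the start and 28 bases after it. The middle one of Srxn1 overlapped TGANTCA, the core of AP-1 sites, which 7.81% of all promoters held. The other 5 matches did not overlap it. A match is a description of the letters and not a bound site. Windows further from the start, where elements of several of these genes lie, were not searched.

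Hmox1 (chromosome 8, 75093618 to 75100593) encodes haem oxygenase 1, which opens haem and frees its iron. It had 33.2, 65.6 and 212 FPKM in control tumours and 94.0, 100.1 and 113 in YKL-40-labelled tumours. Control 3 was the highest of the 6 and controls 1 and 2 were the lowest, while the YKL-40-labelled libraries lay close together between them. The means of the groups were nearly equal, at 104 ± 95.4 and 102 ± 9.63 FPKM. The log2 change was 0.39 because a mean of logs gives less weight to the high library, and its 95% interval from -0.96 to 1.74 covers 0.514-fold to 3.34-fold. The change was -0.21 without control 1 and 1.11 without control 3. In the latter it had an unadjusted p under 0.05 and an adjusted p of 0.0946 in limma. There 2 of 10 members and 2041 of all 11223 tested genes had an unadjusted p under 0.05. Within the controls the highest value was 6.39 times the lowest, and on the log2 scale only 0.205% of tested genes had a larger SD over the controls.

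Glutamate cysteine ligase, the first enzyme of glutathione synthesis, is built of a catalytic chain from Gclc and a modifier chain from Gclm. Gclc (chromosome 9, 77754535 to 77794489) had 17.2, 13.3 and 20.0 FPKM in control tumours and 19.7, 20.0 and 17.6 in YKL-40-labelled tumours. Gclm (chromosome 3, 122245487 to 122267215) had 6.05, 12.0 and 17.6 FPKM in control tumours and 11.6, 9.80 and 12.3 in YKL-40-labelled tumours. For Gclc the control with the lowest value was control 2 and for Gclm it was control 1, so the chains did not follow each other across the controls. The changes were 0.19 for Gclc and 0.03 for Gclm, with 95% intervals from -0.16 to 0.54 and from -0.72 to 0.78. The change of Gclc was 0.04 without control 2 and 0.68 with the level of skeletal muscle markers added to the fit (adjusted p = 0.905 in limma). The change of Gclm was -0.35 without control 1 and 0.35 without control 3.

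The ratio of Gclm to Gclc FPKM was 0.352, 0.904 and 0.881 in control tumours and 0.592, 0.490 and 0.703 in YKL-40-labelled tumours. Control 1 had the lowest ratio and the other 2 controls the highest. The mean log2 ratio differed by -0.15 between the groups (exact two-sided permutation p = 0.8). It differed by 0.08 without control 2 and by 0.06 without control 3.

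Txnrd1 and Srxn1 act on the thioredoxin side of the system. Txnrd1 (chromosome 10, 82833951 to 82897724) encodes thioredoxin reductase 1, a selenoprotein, and had 88.6, 108 and 119 FPKM in control tumours and 101, 124 and 111 in YKL-40-labelled tumours. Srxn1 (chromosome 2, 152105524 to 152111376) encodes sulfiredoxin, which repairs overoxidised peroxiredoxins, and had 11.7, 24.2 and 27.5 FPKM in control tumours and 30.2, 23.4 and 24.8 in YKL-40-labelled tumours. Control 1 was the lowest library for both genes, and for Srxn1 it lay apart from the other 5, which ran from 23.4 to 30.2 FPKM. The change of Srxn1 was 0.37 (95% interval -0.31 to 1.05) and 0.01 without control 1. The change of Txnrd1 was 0.09 (95% interval -0.22 to 0.41) and -0.03 without control 1.

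Nqo1 (chromosome 8, 107388225 to 107403205) encodes a quinone reductase that is widely used as a readout of NRF2. It had 2.25, 2.31 and 1.90 FPKM in control tumours and 1.95, 2.35 and 2.60 in YKL-40-labelled tumours. Unlike Hmox1, Gclm and Srxn1, Nqo1 was not lowest in control 1, and its lowest control was control 3. The change was 0.06, with a 95% interval from -0.25 to 0.37.

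Gpx4 (chromosome 10, 80047166 to 80056439) encodes the selenoprotein that reduces lipid peroxides in membranes and so holds back ferroptosis. It had 204, 244 and 225 FPKM in control tumours and 286, 218 and 202 in YKL-40-labelled tumours. The first YKL-40-labelled library was the highest and the third the lowest of all 6. The change was 0.06 (95% interval -0.29 to 0.40) and -0.09 without YKL-40-labelled library 1.

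**Figure D2:**
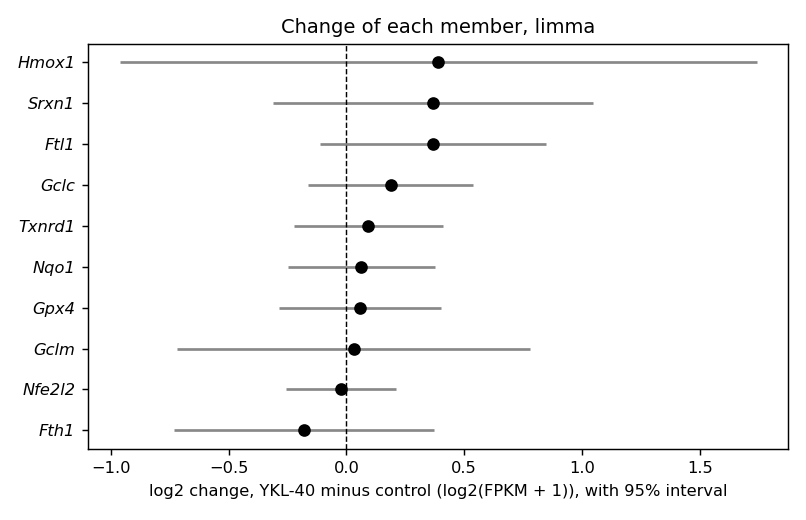
Change of each of the 10 genes, as log2(FPKM + 1) of YKL-40-labelled libraries less that of controls with the 95% interval of limma. All 10 intervals include 0, and the widest is that of Hmox1, from -0.96 to 1.74.

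Fth1 and Ftl1 carry the iron responsive element in their leaders. The core CNNNNNCAGTGN, followed by 5 bases that pair with the 5 between its first C and CAGTGN, was searched in the leaders of GENCODE M21 transcripts, on the strand of the transcript, because this hairpin is what ties ferritin to iron. Both genes held it, and 0.117% of 38554 leaders did. The core alone was in 8.8% of leaders. The core is in capitals, 5′ to 3′ on the strand of the gene.
Fth1, chr19:9982732-9982761, plus strand: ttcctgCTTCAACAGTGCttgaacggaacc
Ftl1, chr7:45459778-45459807, minus strand: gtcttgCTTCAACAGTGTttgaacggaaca
The Fth1 and Ftl1 stretches share 26 of 30 bases.

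Ferritin heavy chain RNA from Fth1 (chromosome 19, 9980600 to 9985111) was at 1234, 1796 and 2487 FPKM in control tumours and at 1594, 1651 and 1444 in YKL-40-labelled tumours. The heavy chain oxidises iron as it enters the shell. Control 1 was the lowest and control 3 the highest of the 6 libraries. The change was -0.18 with a 95% interval from -0.73 to 0.37. It was 0.07 without control 3 and -0.44 without control 1, where Fth1 had an unadjusted p under 0.05 and an adjusted p of 0.365 in limma. Without control 1, 1 of 10 members and 1426 of all 11267 tested genes had an unadjusted p under 0.05.

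Ferritin light chain RNA from Ftl1 (chromosome 7, 45457944 to 45459886) was at 549.7, 739.8 and 957 FPKM in control tumours and at 1087, 906 and 849 in YKL-40-labelled tumours. The light chain helps the iron core form. Control 3 lay within the range of the YKL-40-labelled libraries and controls 1 and 2 lay below it. The change was 0.37 with a 95% interval from -0.11 to 0.85 (adjusted p = 0.393), and it was 0.16 without control 1. Without control 3 it was 0.56, with an unadjusted p under 0.05, as for 2041 of all 11223 tested genes, and an adjusted p of 0.175 in limma. Both ferritin genes have processed copies in the genome with near-identical sequence, and the sources used here do not say how the authors' counting shared such reads, so the levels of both are uncertain to that extent.

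The ratio of the chains combines the changes of 0.37 (Ftl1) and -0.18 (Fth1), neither of which passed the test. Because these changes have opposite signs, the log2 ratio had to differ more between the groups than either chain. The ratio of Ftl1 to Fth1 FPKM was 0.445, 0.412 and 0.385 in control tumours and 0.682, 0.549 and 0.588 in YKL-40-labelled tumours. Every YKL-40-labelled library was above every control. The mean was 0.414 ± 0.0303 in control tumours and 0.606 ± 0.0686 in YKL-40-labelled tumours, a difference of 0.55 on the log2 scale or 1.46-fold. The exact two-sided permutation p was 0.1, the smallest this test can give with 3 libraries in each group. Leaving out 1 library at a time gave differences from 0.46 to 0.62. The ratio compares abundances per length within a library, so a scaling of the whole library does not alter it. Reads shared with the processed copies could alter it, which was not tested. How often ratios of other gene pairs set the groups apart was not counted, while 24.4% of single tested genes had groups without overlap.

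**Figure D3:**
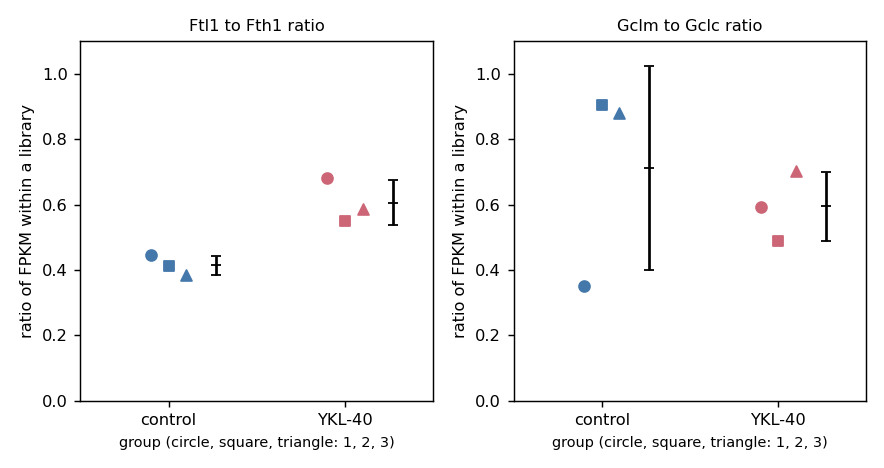
Ratio of Ftl1 to Fth1 FPKM (left) and of Gclm to Gclc FPKM (right) in each library, with the group mean and SD as bars beside the points. The 3 YKL-40-labelled libraries have Ftl1 to Fth1 ratios from 0.549 to 0.682 and the 3 controls from 0.385 to 0.445, while the Gclm to Gclc ratios of the groups overlap.

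Much of the spread in this gene set lay between the control tumours. Control 1 was the lowest control for 8 of the 10 genes, against 35.5% of all tested genes, and control 3 was the highest control for 7 of 10, against 31.1%. Both held for 6 of 10 (Hmox1, Gclm, Txnrd1, Srxn1, Fth1 and Ftl1), against 20.7% of tested genes. The SD on the log2 scale was larger in the controls than in the YKL-40-labelled libraries for 8 of 10 genes, against 42.8% of tested genes. The exceptions were Nqo1 and Gpx4. The highest control exceeded the lowest by a median factor of 1.62 over the members and 1.21 over all tested genes. These counts are descriptions of 3 libraries, and the genes of 1 pathway are not independent of each other.

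Markers of other cells also differed among the controls. The summed FPKM of 17 macrophage markers was 104, 181 and 325 in control tumours and 362, 431 and 523 in YKL-40-labelled tumours. Of the 16 tested macrophage markers, 11 had an unadjusted p under 0.05 in limma, all higher, against 18.0% of all tested genes, and 0 passed. Lyz2, the most abundant of them, had 72.9 ± 49.0 and 123 ± 8.21 FPKM. The summed FPKM of 10 fibroblast markers was 55.4, 121 and 301 in control tumours and 372, 268 and 457 in YKL-40-labelled tumours. Of the 9 tested fibroblast markers, 7 had an unadjusted p under 0.05 in limma, all higher, and 0 passed. The endothelial sum was 59.6, 86.1 and 127 FPKM in control tumours and the T cell sum 1.92, 3.42 and 5.96. In all 4 sums control 1 was the lowest library and control 3 the highest control, as for Hmox1, Gclm, Txnrd1, Srxn1, Fth1 and Ftl1. The T cell sum of the controls was mostly Thy1, at 0.969, 2.40 and 4.35 FPKM, and 5 of its 8 genes were too low to test. Cd3e, Cd2, Cd5 and Cd8a were lowest in control 2 among the controls, and Cd3d, Cd3g and Cd4 in control 1. Apart from Thy1, these T cell genes were picked once their values were known. The YKL-40-labelled libraries were above the controls in the macrophage sum, while in Hmox1 they lay within the range of the controls. In bulk tumours, more cells of a type and more RNA per cell cannot be told apart.

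Blood and muscle markers did not keep the pattern of those sums across all libraries. Among the controls the red blood cell sum was also lowest in control 1 and highest in control 3, while the muscle sum was lowest in control 2. The summed FPKM of 8 red blood cell markers was 472, 1193 and 1441 in control tumours and 550, 116 and 96.3 in YKL-40-labelled tumours. Alas2, the first enzyme of haem synthesis in red cells, had 6.53, 10.8 and 28.1 FPKM in control tumours and 3.74, 2.56 and 1.29 in YKL-40-labelled tumours, and was chosen after its values were seen. Hbb-bs, chosen in the same way, had 191, 651 and 34.8 FPKM in control tumours and 202, 4.97 and 40.0 in YKL-40-labelled tumours. Its groups overlapped, and among the controls it was lowest in control 3. Of the 5 tested red blood cell markers, 4 had a change below 0 and 1, Hba-a1, above it. The summed FPKM of 15 skeletal muscle markers, led by Tnnt3, was 91.9, 49.3 and 200.3 in control tumours and 10.0, 31.8 and 6.41 in YKL-40-labelled tumours. Control 3, the library with the most Hmox1 and Fth1, had the highest sum of both lists. With the muscle level as a covariate the change of Hmox1 was 1.60 (adjusted p = 0.905 in limma), and 0 of 10 members passed. In that fit 1 of 10 members, Gclc, had an unadjusted p under 0.05, against 513 of all 11241 tested genes. The groups did not overlap in 11 of the 12 tested muscle markers, against 24.4% of all tested genes. Muscle level and group can therefore barely be told apart in this fit. In YKL-40-labelled tumours the endothelial sum ran from 88.6 to 110.3 FPKM and the T cell sum from 9.70 to 24.2. Of 6 skin keratinocyte markers 3 were at 0 in every library, and of the adipocyte markers only Fabp4, at 75.2 ± 16.7 and 72.6 ± 17.2 FPKM, was abundant enough to test. The part of the macrophage, fibroblast, endothelial, T cell and red cell levels in the members' values was not tested.

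**Figure D4:**
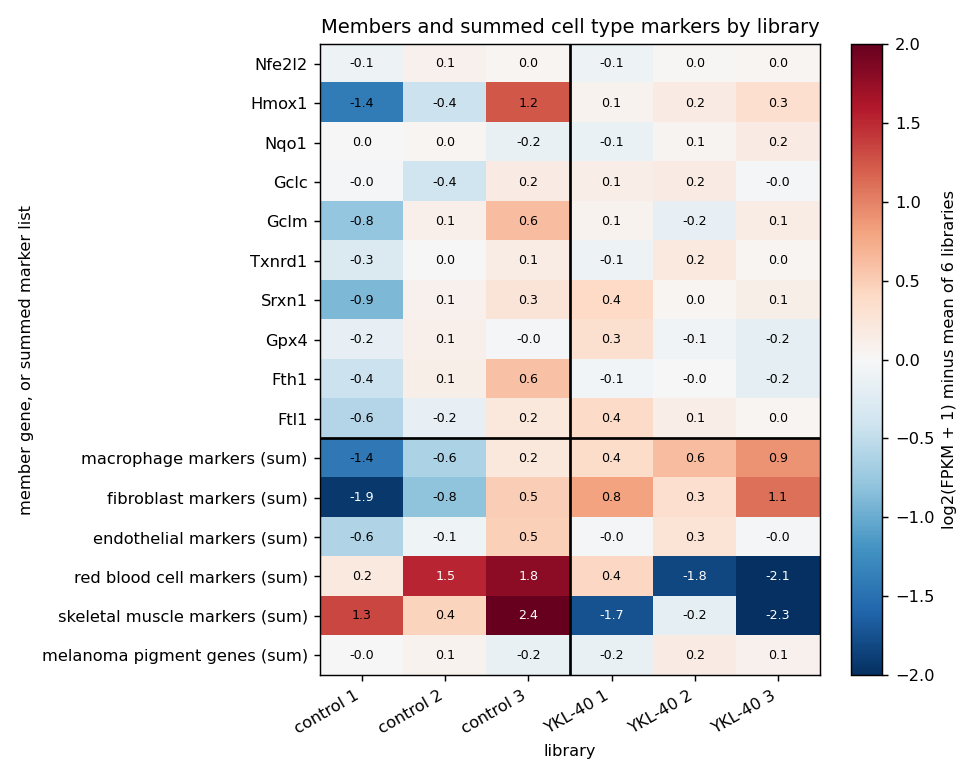
Deviation of log2(FPKM + 1) from the mean of the 6 libraries for the 10 genes (above the line) and for the summed FPKM of 6 marker lists (below it), with controls left and YKL-40-labelled libraries right, and colour limits at -2 and 2. Hmox1, Gclm, Txnrd1, Srxn1, Fth1 and Ftl1 are lowest in control 1, as are the macrophage, fibroblast and endothelial sums.

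Other genes of the same systems were taken from 7 lists of 91 genes, of which 87 were abundant enough to test. Of these, 0 passed the test in limma. An unadjusted p under 0.05 was found for 12, of which 9 were higher and 3 lower. That is 13.8% against 18.0% of all tested genes. In 13 (14.9%) the groups were apart, against 24.4%. The median change was 0.06 over the 87 genes. The values below therefore describe genes that did not pass the test.

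Among the regulators of NRF2, 0 of 9 passed the test. Sqstm1 (p62, which can draw KEAP1 away from NRF2) was the most abundant, with 1129 ± 129 FPKM in control tumours and 1395 ± 58.3 in YKL-40-labelled tumours (0.31, adjusted p = 0.222). Keap1, the NRF2 inhibitor, had 20.2, 19.4 and 20.1 FPKM in control tumours and 21.1, 25.7 and 26.7 in YKL-40-labelled tumours (0.28, adjusted p = 0.248). In both, every YKL-40-labelled library was above every control. Cul3, the ligase scaffold, had 40.1 ± 4.09 and 31.9 ± 4.83 FPKM, with overlapping groups (-0.32, adjusted p = 0.260).

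Of 16 genes of glutathione synthesis and use, 0 passed the test. Gstp1, a glutathione transferase and the most abundant, had 656 ± 80.1 FPKM in control tumours and 896 ± 148 in YKL-40-labelled tumours (0.44, adjusted p = 0.198). Abcc1, which exports glutathione conjugates, had 25.0 ± 2.35 and 32.0 ± 3.83 FPKM (0.34, adjusted p = 0.204). Ggct, which breaks down gamma-glutamyl peptides, had 8.15 ± 0.285 and 6.58 ± 0.494 FPKM (-0.27, adjusted p = 0.216). The groups of all 3 did not overlap.

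Of 11 thioredoxin and peroxiredoxin genes, 0 passed the test, and 0 had an unadjusted p under 0.05. Prdx1, the most abundant, had 893 ± 46.0 FPKM in control tumours and 909 ± 57.5 in YKL-40-labelled tumours, a change of 0.03. Prdx5 had a log2 change of 0.36, Txn1 of 0.35 and Prdx4 of 0.18, with adjusted p-values from 0.309 to 0.397. Of 7 genes that supply NADPH, 0 passed the test, and 0 had an unadjusted p under 0.05. Pgd, of the pentose phosphate pathway and the most abundant, had 73.7 ± 10.7 and 82.5 ± 2.70 FPKM. Tkt had 57.6 ± 1.14 and 64.8 ± 3.33 FPKM and Idh1 had 55.6 ± 12.6 and 43.1 ± 4.05. Of 12 other antioxidant and detoxification genes, 0 passed the test. Sod1, the cytosolic superoxide dismutase, had 88.0 ± 3.22 and 92.7 ± 8.45 FPKM. Ephx1, an epoxide hydrolase, had 57.1 ± 5.85 and 69.9 ± 7.20 FPKM (0.29, adjusted p = 0.269), Osgin1 had a change of 0.38 and Sod3 of 0.85.

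Of 21 tested genes of iron and haem handling, 0 passed the test. The most abundant was Tfrc, the transferrin receptor, whose mRNA iron regulatory proteins protect when iron is short. Tfrc had 435, 340.2 and 227.5 FPKM in control tumours and 191, 226 and 283 in YKL-40-labelled tumours (-0.49, adjusted p = 0.353). The change was -0.27 without control 1, -0.74 without control 3 and -1.02 with the muscle covariate (adjusted p = 0.905 in limma for the last). Within the controls Tfrc was highest in control 1 and lowest in control 3, the reverse of Fth1 and Ftl1. Steap3, which reduces iron taken up with transferrin, had 148, 171 and 187 FPKM in control tumours and 231, 212 and 200.1 in YKL-40-labelled tumours, with no overlap (0.35, adjusted p = 0.189). Blvrb, the gene of biliverdin reductase B, had 2.65 ± 0.600 and 3.62 ± 0.401 FPKM (0.35, adjusted p = 0.290), and Slc25a28, a mitochondrial iron importer, had 17.8 ± 1.77 and 20.9 ± 1.04 (0.22, adjusted p = 0.309).

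Of 11 tested genes of selenoprotein synthesis and lipid peroxidation, 0 passed the test. They held the lowest adjusted p of the 87 genes. Sephs2, which makes the selenium donor for selenoproteins such as those of Gpx4 and Txnrd1, had 17.3, 20.4 and 18.6 FPKM in control tumours and 10.9, 15.2 and 12.1 in YKL-40-labelled tumours (-0.53, adjusted p = 0.119). Selenow, the gene of a small selenoprotein, had 6.59, 13.5 and 17.8 FPKM in control tumours and 40.8, 22.3 and 30.6 in YKL-40-labelled tumours (1.30, adjusted p = 0.132). The groups of both did not overlap, in opposite directions. Ptgs2, which is often used as a marker of ferroptosis and is also an inflammatory gene, had 0.836 ± 0.848 and 5.19 ± 3.32 FPKM (1.65, adjusted p = 0.183). Lpcat3, the most abundant of the list, which loads polyunsaturated fatty acids into phospholipids, had 68.8 ± 5.68 and 65.1 ± 3.38 FPKM. Without YKL-40-labelled library 2, Ptgs2 and Sephs2 were the only ones of the 87 genes to pass in limma, while 238 of all 11242 tested genes passed.

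**Figure D5:**
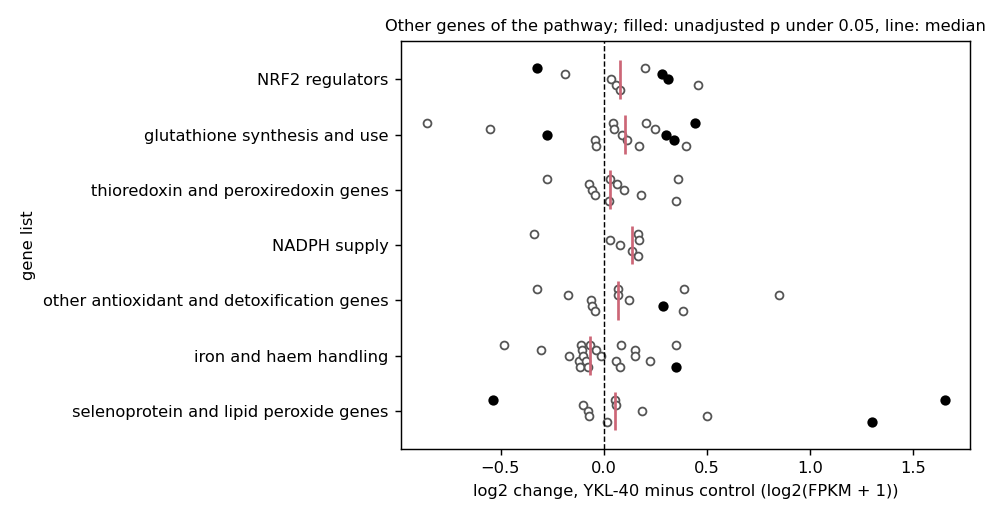
Change of each of the 87 tested genes in 7 lists, as log2(FPKM + 1) of YKL-40-labelled libraries less that of controls, with filled points for the 12 genes at an unadjusted p under 0.05 and a line at the median of each list. The points at the right of the last list are Selenow at 1.30 and Ptgs2 at 1.65, and 0 of the 87 passed after adjustment over all tested genes.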

How the data were processed

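Whole tumour RNA of 6 libraries was used, 3 per group by the titles in the labels, made from 2 µg of RNA with a TruSeq RNA kit, per the labels' protocols. The deposited table gives 1 FPKM value per gene and library. Per the submitters' processing notes, the build was mm10 and the tools were HISAT2, StringTie, limma, DESeq2 and bcl2fastq 2.0, with no role given for any. The annotation and the rule for combining transcripts are not given in the sources used here. Relative depth was the most common ratio to control 1 among genes below 0.3 FPKM in every library.

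Tested genes had to average 1 FPKM or more, and were fitted as log2(FPKM + 1) with limma 3.58.1 in R 4.3.3, with a variance trend, two-sided, and p-values adjusted by Benjamini-Hochberg over all tested genes at a threshold of 0.05. Fold changes on this scale understate changes of low genes. The procedure was tested on simulated data in which every gene and library varied independently. That does not cover spread shared by many genes of a library, as among these controls. Ratios of FPKM within a library were compared by exact permutation. The members and lists were chosen with earlier results of these data known. Named were all members, and of each pathway list the most abundant gene, the 3 of lowest p and any past the threshold. Of each marker list, the most abundant gene was to be named, and only those beside a result are. Positions and promoters are RefSeq's for GRCm38.p6, the assembly of mm10, and leaders are from GENCODE M21. Alternatives were other pseudocounts, filters, scalings, weights and variance models, a replicate block, a muscle covariate and leaving out each library.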

Additional observations from a re-analysis of the deposited data

How the results depend on the processing

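The count of members past the threshold was 0 under all 16 alternatives. Their directions were less stable: of 159 values under alternatives, 16 had the opposite sign. With the muscle covariate the log2 change was 0.28 for Fth1, -0.0458 for Gpx4, -0.0898 for Nqo1, -0.116 for Prdx1 and -0.0387 for Sod1, with array quality weights -0.0286 for Gclm and -0.12 for Gpx4, and with median of ratios scaling 0.0131 for Nfe2l2. Leaving out 1 library gave ranges of -0.44 to 0.0676 for Fth1, -0.35 to 0.35 for Gclm, -0.0903 to 0.158 for Gpx4, -0.21 to 1.11 for Hmox1, -0.0769 to 0.0226 for Nfe2l2, -0.00197 to 0.143 for Nqo1, -0.0270 to 0.186 for Txnrd1, -0.0148 to 0.0779 for Prdx1 and -0.00124 to 0.121 for Sod1, and -0.60 to 0.0792 for the Gclm to Gclc ratio. The Ftl1 to Fth1 ratio kept its direction in the alternatives run for it (FPKM + 1, the replicate block and leaving out each library). The count over the whole table, 49, was 1111 with array quality weights, 1 with no filter, 120 with the replicate block and 0 with the muscle covariate (513 at an unadjusted p under 0.05 in limma), and ran from 0 to 238 without 1 library. Pathway genes past the threshold, 0 of 87, were 5 with array quality weights (Chac1, Keap1, Ptgs2, Selenow and Sephs2), 1 with the replicate block (Chac1) and from 0 to 2 without 1 library. The cause was not tested. The labels do not say whether replicate numbers pair the libraries. Deviations of same-numbered libraries correlated at -0.0832, -0.185 and 0.0017, and those of differently numbered ones at -0.1375 to 0.2036. So few libraries cannot decide whether the numbers pair them. With the replicate block the log2 ratio of Ftl1 to Fth1 still differed by 0.55 (exact sign-flip p = 0.25, the smallest possible). Depth limits little for the abundant ferritin genes, while read totals behind Nqo1 are unknown.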

Other observations

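The alpha globin genes Hba-a1 and Hba-a2 are near copies of each other, and their values changed places between the groups. Hba-a1 had 0, 1.60 and 0.0396 FPKM in control tumours and 258, 104 and 54.7 in YKL-40-labelled tumours, and passed in limma (6.37, adjusted p = 0.0303). Hba-a2 had 266, 509.7 and 1331 FPKM in control tumours and 76.3, 0 and 0 in YKL-40-labelled tumours. Summed, they had 266, 511 and 1331 FPKM in control tumours and 334, 104 and 54.7 in YKL-40-labelled tumours, which overlap. How reads of such copies were shared was not tested. Hba-a2 was picked once its values were known.

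Gpx1, a cytosolic selenoprotein, had 68.1, 94.5 and 87.3 FPKM in control tumours and 149, 27.8 and 147 in YKL-40-labelled tumours, so that the second YKL-40-labelled library was the lowest of the 6 and the other 2 were the highest. Its change was 0.05 with an adjusted p of 0.978 in limma. Chac1, a glutathione-degrading enzyme gene, had 12.5, 31.2 and 21.9 FPKM in control tumours and 6.93, 18.4 and 9.91 in YKL-40-labelled tumours (-0.86, adjusted p = 0.310). Gpx1 and Chac1 were picked once their values were known.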
